A study of Mus musculus with 6 samples.

Results

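Of 8 genes for GATA transcription factors and their cofactors, 5 were higher in miR-34a-/- mouse induced pluripotent stem cell (iPSC) lines than in wild-type lines, and none was called lower. For comparison, 26.5% of all 14717 tested genes were called higher and 24.0% lower at the same threshold, an adjusted p under 0.05. Those 5 were Gata1, Gata4, Gata6, the GATA cofactor gene Zfpm1 and the adaptor gene Lmo2, at 1.93 to 3.34 times the wild-type level. Gata2, which published work on these cells names as a miR-34a target, differed by less than the test could call, and so did Gata3 and Tal1. The 8 genes were chosen by name from the 41388 genes of the deposited count table. Poly(A) RNA was sequenced from 3 miR-34a-/- lines and 3 wild-type lines, both of strain C57BL/6. The fibroblasts came from littermate embryos of embryonic day 13.5, per the labels, and were reprogrammed with retroviral vectors for mouse Oct4, Sox2 and Klf4. Each line grew from a picked colony on irradiated fibroblast feeders, so a library holds the RNA of 1 clone and of any feeder cells left in it. All 6 lines share the retroviral reprogramming and the feeder culture. The labels do not say which line came from which embryo, and p-values measure the spread between lines.

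GATA factors are zinc finger proteins that bind DNA at the letters GATA. Gata1, Gata2 and Gata3 are best known from blood, and Gata2 and Gata3 also from the trophoblast, while Gata4 and Gata6 drive primitive endoderm and heart development. Zfpm1 encodes FOG1, which binds GATA factors and brings in the NuRD repressor complex, and in blood cells Tal1, Lmo2 and Ldb1 join GATA1 or GATA2 in one complex. A microRNA such as miR-34a lowers mRNAs that pair with its seed, the bases near its 5′ end, mostly in 3′ UTRs.

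Depth was 8721581 to 29654855 counts in the knockout libraries and 8432597 to 25698286 in the wild-type libraries. The targeted gene, Mir34a, a hairpin gene that poly(A) libraries barely capture, had 1 count over the knockout and 2 over the wild-type libraries, which checks no label. Levels are CPM, a gene's counts relative to its library's counts over the tested genes, scaled with TMM factors, and 3 counts equal 0.107 to 0.375 CPM depending on the library. All 15 pluripotency markers on the list were detected and tested, with a summed level of 10138 to 10613 CPM in knockout and 8466 to 8618 CPM in wild-type lines. Fibroblast and feeder markers summed to 599 to 694 CPM in knockout and 939 to 1208 CPM in wild-type lines. Y-linked genes were near 0 in every knockout line, with Ddx3y at 0.163 CPM in knockout and 11.7 CPM in wild-type lines, so genotype and sex chromosome content cannot be told apart. In bulk RNA, fewer cells of a type and less RNA per cell cannot be told apart either. Of the tested genes, 50.5% were called in either direction, with a median absolute log2 fold change of 0.48 among those called. The 6 libraries separated by genotype without overlap for 56.0% of tested genes, with the knockout lines above for 29.2%.

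The sequence of the deleted microRNA and its matches in the members are shown first, because microRNAs act through such pairing. The 3 mature mouse microRNAs below, from RefSeq on GRCm38.p6, share the seed at bases 2 to 8, which is in capitals. The mature miR-34a-5p lies at chr4:150068473-150068494 on the plus strand. The other 2 are encoded on chromosomes 9 and 13, apart from the gene that the genotype label names. The name mmu-miR-34c-5p was also looked up but had no entry, so the list may not hold every mouse microRNA with this seed.

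mmu-miR-34a-5p: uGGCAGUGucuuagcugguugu
mmu-miR-34b-5p: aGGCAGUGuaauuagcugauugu
mmu-miR-449a-5p: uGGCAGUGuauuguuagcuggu

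Each 3′ UTR was searched for CACTGCC, the complement of bases 2 to 8, and for ACTGCC, the complement of bases 2 to 7. Of the 8 members, Gata3 alone had a match of the longer form in an annotated 3′ UTR, at base 1223 of 1292. The 1538-base 3′ UTR of Gata2 held neither form, and the annotated 3′ UTR of Zfpm1 is only 60 bases long. Searching whole protein-coding transcripts, an extension made after the 3′ UTR result was seen, found matches in coding sequence of Gata2, Gata1, Zfpm1 and Gata4. The longest match of each gene is shown 5′ to 3′ on the mRNA strand, with capitals for the bases that pair with the seed and, in Gata2 and Gata4, for an A that follows the 6-base match. The windows are from the mm10 genome, the build of the counts, with GENCODE M21 transcripts. The Gata3 window lies at chr2:9857139-9857160 (minus strand), that of Gata2 at chr6:88205466-88205487 (plus), that of Gata1 at chrX:7962309-7962330 (minus), that of Zfpm1 at chr8:122336788-122336809 (plus) and that of Gata4 at chr14:63203743-63203764 (minus).

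Gata3, 3′ UTR: ctgtattagtgatCACTGCCtt
Gata2, coding: cgtccagcatggtgACTGCCAt
Gata1, coding: acgctggggactgCACTGCCtg
Zfpm1, coding: cgcctttgcgcacCACTGCCct
Gata4, coding: cctctcctgtgccaACTGCCAg

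Not shown are 1 further coding match of the 6-base form in Gata1, 2 in Zfpm1 and 1 in the 5′ UTR of some Gata4 transcripts. Some Lmo2 transcripts had the longer form in the 5′ UTR, and Tal1 and Gata6 had neither form in any annotated protein-coding transcript. The longer form is common: it lay in the 3′ UTR of 14.3% of 20606 genes and in the coding sequence of 18.5% of 21189 genes. Among 2304 tested genes with it in the 3′ UTR, 29.3% were called higher and 25.0% lower, with a median log2 fold change of 0.03. Among 8800 tested genes with no match of any form in the 3′ UTR, 26.9% were called higher and 24.4% lower, with a median of 0.003. For 2852 tested genes with the longer form in coding sequence, these shares were 34.7% and 20.1%, with a median of 0.08. The 441 tested genes with it in the 5′ UTR had like shares, 33.6% and 20.2%, with a median of 0.08. A gene with the longer form in both parts counts in both groups, and the cause of these shares was not tested. A match is a description of the letters and not a tested site.

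The question put to Gata2, a zinc finger factor of blood stem cells and trophoblast, is whether its mRNA was higher without miR-34a. Gata2 (ENSMUSG00000015053, chr6:88193891-88207032, plus strand) stood at 15.1, 13.7 and 12.8 CPM in knockout lines 1, 2 and 3, against 15.1, 14.3 and 15.4 CPM in wild-type lines 1, 2 and 3. The genotypes overlapped, and knockout lines 2 and 3 lay under all wild-type lines. Its log2 fold change, here and below knockout over wild-type, was -0.10 (SE 0.0958, edgeR quasi-likelihood adjusted p = 0.39, n = 3 lines each). The 95% interval runs from 0.81 to 1.07 times the wild-type level, so larger increases lay outside it. When library trends with GC content were removed, Gata2 was called lower, at -0.26 (edgeR adjusted p = 0.024), in a fit that called 24.3% of 14638 genes higher and 24.5% lower. Its transcript is 58.2% GC, and 1442 autosomal genes within 2 GC points of it had a median log2 fold change of 0.09, so genes of like GC lay slightly above it.

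Gata3, which drives trophoblast and T cell development and is the member with the 3′ UTR match above, was not called either. Gata3 (ENSMUSG00000015619, chr2:9857078-9890034, minus strand) was at 4.41, 6.01 and 4.29 CPM in knockout lines against 4.43, 4.75 and 4.00 CPM in wild-type lines. Knockout line 2 was the highest library and the other knockout lines lay within the wild-type range. The log2 fold change was 0.22 (SE 0.163, edgeR adjusted p = 0.27), with a 95% interval of 0.922 to 1.48 times the wild-type level. Without knockout line 2 it was 0.01.

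**Figure D1:**
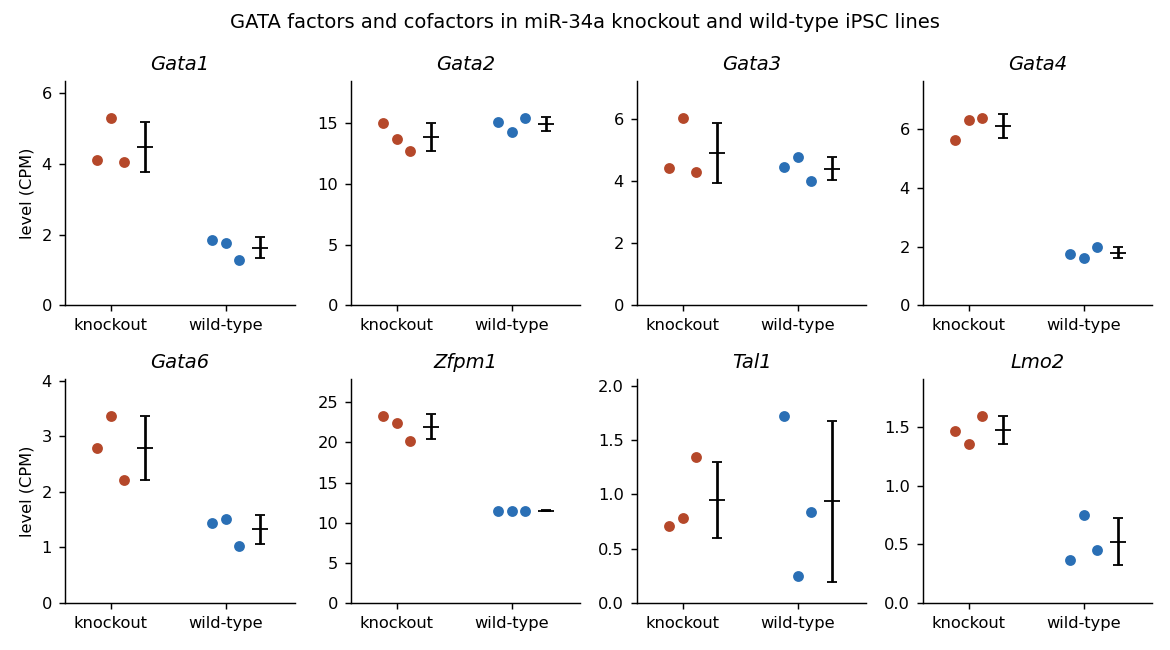
Level in CPM (vertical axes, from 0, a separate scale per gene) of each of the 8 genes in the 3 knockout lines, left, and the 3 wild-type lines, right. Points are lines in the order 1, 2, 3 and bars are mean ± SD. Gata1, Gata4, Gata6, Zfpm1 and Lmo2 have every knockout line above every wild-type line, while Gata2, Gata3 and Tal1 overlap.

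Gata4 and Gata6, which specify primitive endoderm in the early embryo and later the heart, were both higher in knockout lines. Gata4 (ENSMUSG00000021944, chr14:63198922-63271692, minus strand) was at 5.63, 6.33 and 6.38 CPM in knockout lines against 1.76, 1.63 and 2.00 CPM in wild-type lines. Every knockout line was above every wild-type line, and the lowest knockout line was well over the highest wild-type line. The log2 fold change was 1.74 (SE 0.168, edgeR adjusted p = 7.1e-08), or 3.34-fold with a 95% interval of 2.62 to 4.27. This was the largest estimate of the 8, and its interval overlapped those of Gata1, Gata6 and Lmo2. Gata6 (ENSMUSG00000005836, chromosome 18, 11052064 to 11085635, plus strand) was at 2.79, 3.36 and 2.21 CPM in knockout lines against 1.44, 1.50 and 1.03 CPM in wild-type lines. The groups did not overlap. Its log2 fold change was 1.16 (SE 0.228, edgeR adjusted p = 0.00034), or 2.23-fold with an interval of 1.60 to 3.10. Gata6 rested on few counts, 167 in total in knockout libraries against 63 in wild-type libraries.

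Within a library, Gata4 stood at 3.67 times Gata6 per length of exon in knockout lines (geometric mean, n = 3) and at 2.27 times in wild-type lines. That ratio overlapped between the genotypes (exact two-sided permutation p = 0.2, smallest possible p = 0.1), so a stronger response of Gata4 than of Gata6 was not shown. Gata5, the other family member of endoderm and heart, had 2 counts over the knockout libraries and 0 over the wild-type libraries and was not tested.

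Gata1, the regulator of red cell and platelet development, was higher in knockout lines as well. Gata1 (ENSMUSG00000031162, chrX:7959260-7978071, minus strand) was at 4.11, 5.29 and 4.05 CPM in knockout lines against 1.85, 1.75 and 1.29 CPM in wild-type lines. No knockout line fell into the wild-type range. The log2 fold change was 1.49 (SE 0.200, edgeR adjusted p = 5.2e-06), or 2.80-fold with an interval of 2.10 to 3.74.

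Gata1 is the X-linked member, and the genes around it were higher too. Of 21 tested protein-coding genes that start within 250 kb of the Gata1 start, 19 were called higher and none lower, with a median log2 fold change of 1.47, close to that of Gata1 itself. Hdac6, a tubulin deacetylase gene next to it, was at 546 ± 29.3 CPM in knockout and 175 ± 5.20 CPM in wild-type lines (mean ± SD, n = 3 each), a log2 fold change of 1.64. Pqbp1, Otud5, Tbc1d25 and Praf2 had values of 1.69, 1.47, 1.85 and 1.63. The 2 neighbours not called were Pim2, at -0.005, and Glod5, at 0.40, both named after their values were seen, and the highest was Was, at 2.78. The X chromosome was then counted over tested genes with a mean of at least 1 CPM. Between 5 and 10 Mb, 47 of 49 such genes, Gata1 included, were called higher, with a median of 1.50. Of the 49, 22 had a fold change below that of Gata1. Over the rest of the X, 211 of 416 such genes were called higher and 71 lower, with a median of 0.30. Xist, the RNA that coats an inactive X, was at 4.90 CPM in knockout and 3.07 CPM in wild-type lines. The part of X content and of the region in the Gata1 difference was not tested.

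**Figure D2:**
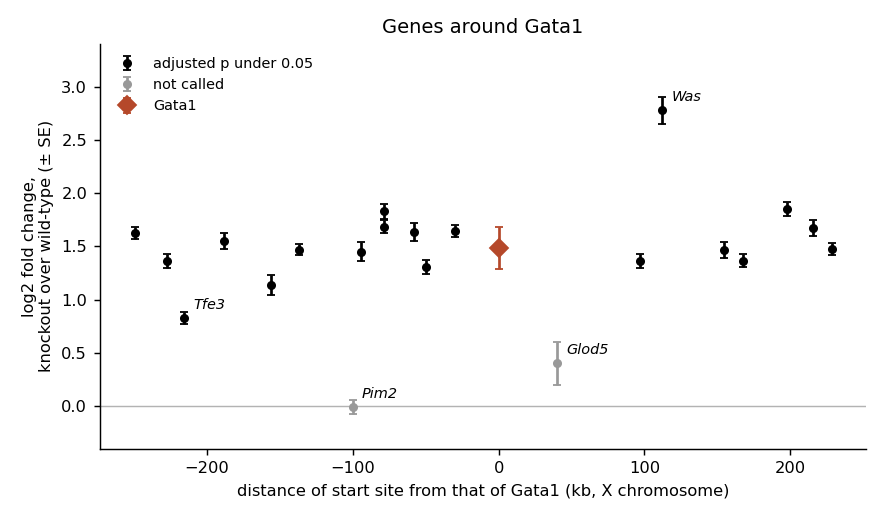
Log2 fold change, knockout over wild-type (vertical axis, bars ± SE), of tested protein-coding genes against the distance of their annotated start from that of Gata1 on the X chromosome (horizontal axis, kb, positive towards higher coordinates). Of 21 neighbours, 19 are called higher (black), Pim2 and Glod5 are not (grey), and Gata1 (diamond, 1.49) lies in the middle of the others.

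Around the autosomal members the medians over tested neighbours lay between -0.23 and 0.15. Within 250 kb of Gata4, 1 of 5 tested genes was called higher and 1 lower, with a median of 0.07. Around Zfpm1, 1 of 6 was higher and 3 were lower, with a median of -0.17, and around Lmo2, 3 of 5 were lower and none higher, with a median of -0.23. Gata2 had 2 of 3 tested neighbours called higher, with a median of 0.15. Gata3 had 1 of 3 called lower, Tal1 had 1 of 2 called lower, and Gata6 had no protein-coding neighbour in that distance.

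Zfpm1, which encodes the GATA cofactor FOG1, had the smallest SE of the 8 and the highest CPM in knockout lines, while in wild-type lines Gata2 had the highest. Zfpm1 (ENSMUSG00000049577, chr8:122282141-122337251, plus strand) was at 23.3, 22.4 and 20.2 CPM in knockout lines against 11.5, 11.5 and 11.4 CPM in wild-type lines. The wild-type lines lay almost on one value and all knockout lines were far above them. The log2 fold change was 0.95 (SE 0.0905, edgeR adjusted p = 5.5e-08), or 1.93-fold with an interval of 1.70 to 2.21. Its transcript is 66.8% GC, and the 30 autosomal genes of like GC had a median log2 fold change of 0.36. With GC trends removed, Zfpm1 was still called higher, at 0.82. Zfpm2, which encodes the related cofactor FOG2, was at 2.16 ± 0.238 CPM in knockout and 1.72 ± 0.188 CPM in wild-type lines, a log2 fold change of 0.32 (SE 0.211, edgeR adjusted p = 0.22).

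Lmo2 and Tal1, the adaptor and the helix-loop-helix factor of the GATA complex in blood, were both near the detection limit. Lmo2 (ENSMUSG00000032698, chr2:103957986-103981878, plus strand) was at 1.47, 1.36 and 1.59 CPM in knockout lines against 0.369, 0.751 and 0.451 CPM in wild-type lines. The groups did not overlap, with 80 counts in total in knockout libraries against 22 in wild-type libraries. Its log2 fold change was 1.62 (SE 0.320, edgeR adjusted p = 0.00034), or 3.08-fold with an interval of 1.93 to 4.89. All 3 knockout libraries but only 1 wild-type library exceeded the 0.564 CPM of the count filter, so Lmo2 was tested because of its knockout level. A gene on the opposite strand, 4931422A03Rik, overlaps Lmo2 and had 27 counts in knockout libraries against 19 in wild-type libraries, and no source used here states whether the counting used strand.

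Tal1 (ENSMUSG00000028717, chr4:115056426-115071755, plus strand) was at 0.71, 0.787 and 1.35 CPM in knockout lines against 1.72, 0.25 and 0.838 CPM in wild-type lines. The highest and the lowest library were both wild-type, with 42 counts in line 1 and 2 in line 2. The log2 fold change was -0.43 (SE 0.424, edgeR adjusted p = 0.43), and without wild-type line 1 it was 0.43, so no direction was resolved at this depth. Its 95% interval of -1.34 to 0.49 on the log2 scale spans decreases and increases alike.

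Ldb1, Tcf3, Klf1 and Lyl1 are described here, and the rest of the blood complex with the lists further on. Ldb1, the bridging protein gene, was at 200.5 ± 3.46 CPM in knockout and 200.6 ± 12.6 CPM in wild-type lines, a log2 fold change of -0.0003 (SE 0.0545) with an interval of 0.924 to 1.08 times the wild-type level. Tcf3, which encodes the E-protein partner of TAL1, fell, with 195 ± 14.8 CPM in knockout and 239 ± 7.59 CPM in wild-type lines, a difference of -0.29 on the log2 scale (edgeR adjusted p = 0.00033). Klf1, the red cell factor that GATA1 switches on, had 36 counts in knockout and 46 in wild-type libraries, a difference of -0.56 on the log2 scale (edgeR adjusted p = 0.14). Lyl1, a relative of Tal1, had 22 counts against 6 and was not tested.

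**Figure D3:**
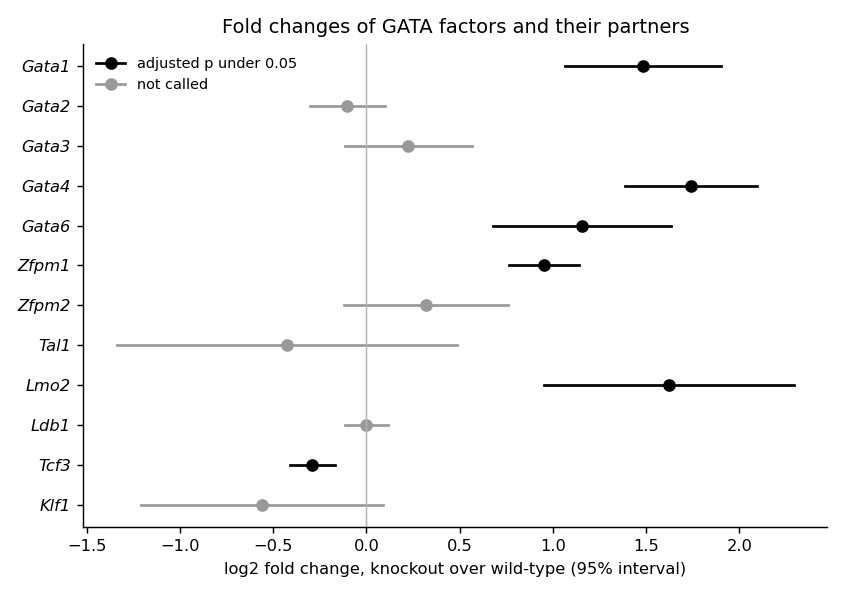
Log2 fold change, knockout over wild-type, with its 95% interval (horizontal axis) for the 8 genes and 4 tested partners, in black where the edgeR adjusted p is under 0.05. Gata1, Gata4, Gata6, Zfpm1 and Lmo2 lie right of 0, Tcf3 left of it at -0.29, and the widest interval is that of Tal1.

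Compared per kilobase of exon, the order of the members was not the same in the genotypes. In knockout lines Zfpm1 was highest, at 6.27 ± 0.445 CPM per kb (SD, n = 3 here and below), followed by Gata2 at 2.56 ± 0.215, Gata1 at 1.84 ± 0.288, Gata4 at 1.57 ± 0.107, Gata3 at 1.23 ± 0.241, Lmo2 at 0.681 ± 0.0543, Gata6 at 0.428 ± 0.0887 and Tal1 at 0.217 ± 0.0797. The SD ranges of Gata1 and Gata4 overlapped, and so did those of Gata4 and Gata3, while the other neighbours in that order were further apart than their SD. In wild-type lines Zfpm1 was at 3.27 ± 0.0152, Gata2 at 2.77 ± 0.111, Gata3 at 1.10 ± 0.0956, Gata1 at 0.668 ± 0.122, Gata4 at 0.46 ± 0.0481, Lmo2 at 0.242 ± 0.0927, Tal1 at 0.214 ± 0.169 and Gata6 at 0.203 ± 0.0391. There the SD ranges of the last 3, Lmo2, Tal1 and Gata6, overlapped. The order depends on the length used: with the longest transcript in place of all exons, Gata2 came first in wild-type lines, at 4.18 ± 0.167 CPM per kb, ahead of Zfpm1 at 3.38 ± 0.0157, and Gata6 came ahead of Lmo2 and Tal1. In knockout lines the order was the same with either length.

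The 5 detected GATA factors together stood at 7.45, 8.36 and 7.07 CPM per kb in knockout lines against 5.35, 5.20 and 5.06 CPM per kb in wild-type lines. The sums did not overlap (exact two-sided permutation p = 0.1, the smallest that 3 against 3 lines allow). Gata2 made up 33.7 ± 3.54% of the sum in knockout and 53.2 ± 2.90% in wild-type lines. Gata4 made up 20.6 ± 2.15% and 8.86 ± 1.11%, and Gata1 24.0 ± 1.75% and 12.8 ± 2.04%, again in knockout and wild-type lines. The share of Gata3 was 16.1 ± 1.75% in knockout and 21.2 ± 1.59% in wild-type lines, although its level was not called different. Against Gata2 in the same library, Gata1 stood at 0.717 in knockout and 0.244 in wild-type lines, Gata4 at 0.613 and 0.169, and Zfpm1 at 2.44 and 1.18 (geometric means of per-length ratios). Zfpm1 stood at 3.41 times Gata1 in knockout and 4.86 times in wild-type lines. With the longest transcript as length, Zfpm1 stood at 1.67 times Gata2 in knockout and 0.81 times in wild-type lines. The 4 ratios did not overlap between the genotypes. Each had an exact two-sided permutation p of 0.1, and 0.125 after adjustment over the 5 ratios computed. Gata1, Gata4 and Zfpm1 were called higher in the same libraries and Gata2 was not called, so their ratios to Gata2 are no separate evidence.

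**Figure D4:**
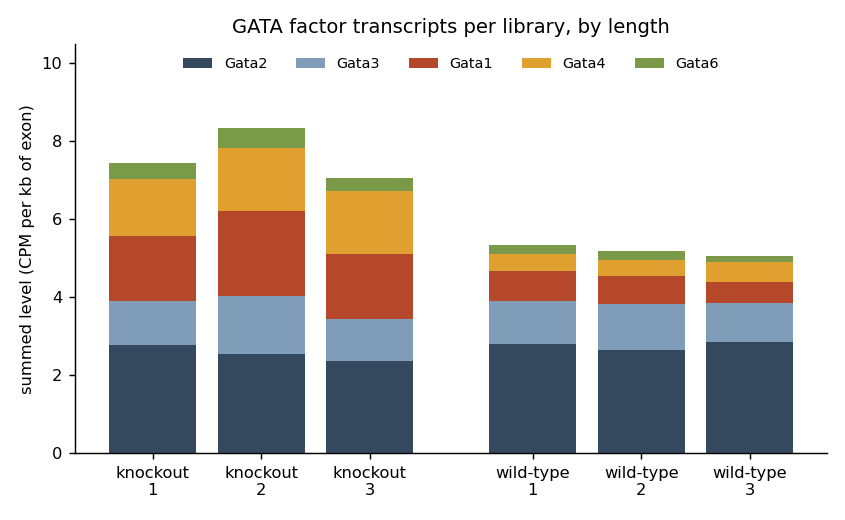
Summed level of the 5 detected GATA factors in CPM per kb of exon (vertical axis, stacked from 0) in knockout lines 1 to 3, left, and wild-type lines 1 to 3, right. The Gata2 segment at the base is of like height in all 6 libraries, and the taller knockout bars, 7.07 to 8.36 against 5.06 to 5.35, come with larger Gata1 and Gata4 segments.

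The promoters of the members were searched for the letters their own proteins bind, since GATA factors are known to act on GATA genes. The word searched was GATA with an A or a T before it and an A or a G after it, on both strands, in the window from 250 bases before to 50 after the RefSeq start (GRCm38.p6). RefSeq windows were at hand for Gata1, Gata2, Gata3, Zfpm1 and Tal1. Gata3 had 1 match, 36 bases after the start, and 1 of the 2 Tal1 windows had 1, at -205, while the windows of Gata1, Gata2 and Zfpm1 had none. Of all 32851 promoter windows, 29.8% held at least 1. The core letters GATA or TATC alone, a search added afterwards, were in 57.9% of all windows, once in that of Gata1, at -132, and 4 times in that Tal1 window, where GATATC counts on both strands. No match says only that these letters are absent from the window. The 250 bases before the start of Gata1 (chrX:7967911-7968160, minus strand) and of Tal1 (chr4:115056176-115056425, plus strand) follow as the contrast, with the core letters in capitals.

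Gata1: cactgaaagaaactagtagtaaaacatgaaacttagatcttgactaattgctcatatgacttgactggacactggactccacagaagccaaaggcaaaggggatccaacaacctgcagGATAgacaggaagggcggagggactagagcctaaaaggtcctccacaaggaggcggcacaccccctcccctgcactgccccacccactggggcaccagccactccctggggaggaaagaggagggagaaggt
Tal1: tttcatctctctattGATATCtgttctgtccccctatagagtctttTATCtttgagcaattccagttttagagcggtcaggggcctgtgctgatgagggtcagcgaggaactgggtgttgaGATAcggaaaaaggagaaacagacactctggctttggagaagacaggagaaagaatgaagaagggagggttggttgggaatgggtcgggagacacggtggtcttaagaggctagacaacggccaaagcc

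Genes of the tissues in which the members act were counted in lists, beside the background of 26.5% higher and 24.0% lower and a median log2 fold change of 0.006 over all tested genes. Of 25 primitive endoderm genes, the setting of Gata4 and Gata6, 20 were tested, 12 rose and 4 fell, with a median of 0.48. Among them Pdgfra, a receptor gene of primitive endoderm, rose by 1.98 and Sparc by 0.55, while Emb was lower, at -1.28. Hnf4a, a visceral endoderm factor, had 53 counts in knockout libraries and 0 in wild-type libraries, which is at least 15.2-fold higher when 3 counts are taken as the floor over the wild-type group, and the list median is the same with Hnf4a at that bound. Of the 20, 4 had all 3 knockout libraries but not all 3 wild-type libraries over the filter cutoff. Of 13 heart genes that accompany Gata4, 8 were tested, 7 rose and none fell, with a median of 1.23. Tnnt2, a heart troponin gene, rose by 3.82, Nppb by 1.46, Myl7 by 1.26 and Myh6 by 0.74. Of those 8, 3 likewise had all libraries over the cutoff in knockout lines only. With DESeq2 or without wild-type line 1, only 4 heart genes were called higher.

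The lists linked to Gata1, Gata2 and Gata3 were mixed. Of 23 blood progenitor genes, 18 were tested, 9 rose and 4 fell, with a median of 0.37, and Gata1, Lmo2 and Tal1 were among the tested genes. Cd34, a surface marker of blood progenitors and endothelium, was at 8.34 ± 0.264 CPM in knockout and 2.56 ± 0.210 CPM in wild-type lines, while Myb, a progenitor transcription factor, was at 4.91 ± 0.688 and 14.5 ± 0.379 CPM. Of 24 matched red cell genes, the known targets of GATA1, 13 were tested, 3 rose and 4 fell, with a median of -0.03. Tspo2 rose by 2.77 and Slc4a1, the red cell anion exchanger, by 0.98, while Tfrc was at -1.04, and each globin gene on the list had 0 to 3 counts in either genotype. Of 21 trophoblast genes, the setting of Gata2 and Gata3, 17 were tested, 6 rose and 6 fell, with a median of 0.05. Fgfr2, Tfap2c, Krt18 and Krt8 fell, by 1.67, 0.97, 1.15 and 1.19 on the log2 scale. For 3 blood progenitor, 3 red cell and 2 trophoblast genes, all libraries were over the filter cutoff in 1 genotype only.

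**Figure D5:**
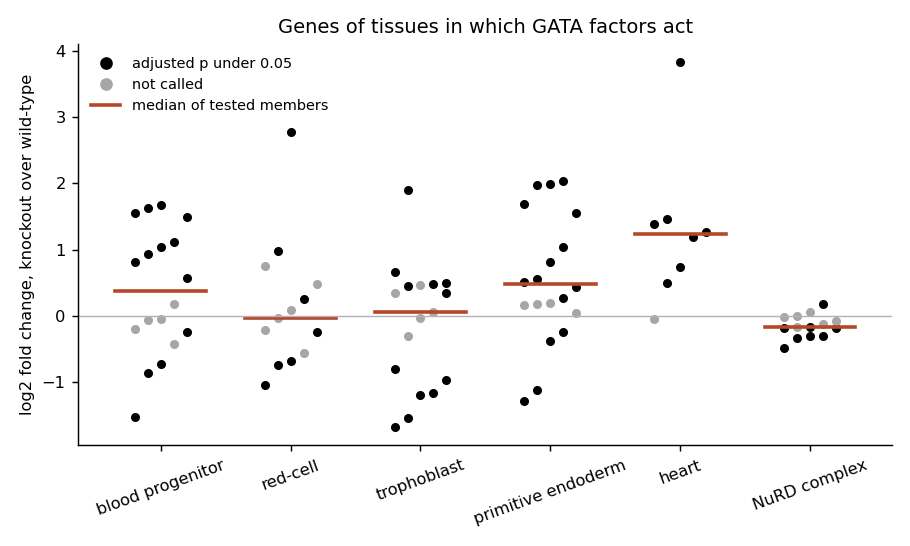
Log2 fold change, knockout over wild-type (vertical axis), of the tested genes of 6 lists linked to GATA factors (horizontal axis), black where the edgeR adjusted p is under 0.05, with the list median as a line. Hnf4a, at 0 counts in wild-type lines, enters its median but is not drawn. The heart median of 1.23 and the primitive endoderm median of 0.48 are the highest, and those of the red cell and trophoblast lists lie near 0.

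Among genes for protein partners of the members, calls went both ways. Of 20 genes of the GATA1 complex, Gata1, Gata2, Zfpm1, Tal1 and Lmo2 included, 17 were tested. Of these 17, 4 rose and 2 fell, with a median of -0.0003, and 4 had all libraries over the filter cutoff in 1 genotype only. Ssbp3, which encodes a protein that stabilises LDB1, fell by 0.60 on the log2 scale. Cbfa2t3, which encodes the corepressor ETO2 of the blood complex and is named after its value was seen, was called higher, at 1.47 (edgeR adjusted p = 0.0034), with 46 counts in knockout against 14 in wild-type libraries, and no wild-type library over the filter cutoff. Of the 14 genes of the NuRD complex, which FOG1 recruits, 1 rose and 7 fell, with a median of -0.16, and Mbd3, Hdac1, Cdk2ap1 and Chd3 had log2 fold changes of -0.33, -0.30, -0.49 and -0.30. Of 9 genes for other proteins with a GATA-type zinc finger, 1 rose and 2 fell, with a median of -0.09. Trps1, a repressor that binds GATA letters, rose by 0.50, Gatad2a and Mta3 were at -0.19 each and were called lower, and Mta1 was at -0.12 and was not called.

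Marker lists of other cell types stood beside these values as follows. Of 11 blood cell markers, 4 were tested, 3 rose and 1 fell, and their summed level was 241 to 261 CPM in knockout and 118 to 130 CPM in wild-type lines, nearly all of it from Laptm5, a lysosomal gene of blood cells, at 225 and 106 CPM. Cd68 rose by 0.66, and Coro1a was called lower, at -0.61. Among the markers not tested, Ptprc, which encodes CD45 and defines blood cells, had 3 counts over the knockout and 2 over the wild-type libraries. Tyrobp had 0 in all 6 (Ptprc and Tyrobp are named after their values were seen). Of 12 endothelial markers, 9 were tested, 4 rose and 1 fell, with sums of 213 to 229 CPM in knockout and 143 to 150 CPM in wild-type lines. For 2 of the 9, all libraries were over the filter cutoff in knockout lines only. Tie1 was among them, with 20 counts over the wild-type libraries. Tie1 rose by 5.56, Eng by 1.21 and Tek by 0.57, and Esam was at -1.46. Pecam1, Vwf, Cdh5 and Emcn are named after their values were seen. Pecam1 was at 71.1 CPM in knockout and 65.6 CPM in wild-type lines and was not called, while Vwf rose by 0.73. Cdh5 had 19 counts over the knockout and 10 over the wild-type libraries, and Emcn had 0 counts in all 6 libraries. Of 20 fibroblast and feeder markers, 19 were tested, and 2 of these had all libraries over the filter cutoff in 1 genotype only. Of the 19, 2 rose and 13 fell, with a median of -0.74. Among those that fell were Tagln, Acta2 and Postn at -1.81, -1.81 and -3.03, while S100a4 rose by 1.62. Of the 15 pluripotency markers, 10 rose and 2 fell, with Tbx3, Tdgf1 and Klf2 at 1.49, 0.56 and 0.49 and Lin28a at -0.75. The part of any of these cell types in the levels of the members was not tested.

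For each member, the genes with the most similar level over the 6 libraries were sought among genes of at least 1 CPM, by Pearson's r, as a description. For members that separate the genotypes, r can be high for genes that separate them in the same direction. The number of genes with an r above 0.95 was 1583 with Zfpm1, 1438 with Gata4, 1040 with Gata1, 488 with Lmo2 and 409 with Gata6. The closest were Lrpap1 to Zfpm1 (0.9996), Zfp57 to Gata4 (0.9991), Efna3 and Cldn19 to Gata1 (0.9963 each), Cav2 to Lmo2 (0.9983) and Arhgap22 to Gata6 (0.9984). Gata2, Gata3 and Tal1, which do not separate the genotypes, had 17, 7 and 6 such genes. The closest to Gata2 were Tm9sf4 and Imp4, each with an r of 0.98, those to Gata3 were Gm25053 (0.9896) and Chchd5 (0.9726), and the closest to Tal1 was Spryd3 (0.986).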

How the data were processed

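Values are raw counts per gene as deposited, not normalized, made with TopHat2 2.0.11 alignments to mm10 and featureCounts 1.4.5, per the submitters' processing notes. No source used here gives the counting options, strand included, though the labels call the libraries strand-specific. Of the counts, 5.4% to 6.16% belonged to 902 repeat families, which were left out. A further table, with 6 columns whose names match no label, was not used. The members and lists were chosen with earlier results of these data known. Genes were tested with edgeR 4.0.16 (filterByExpr at 10 counts, TMM, robust quasi-likelihood F test, two-sided, Benjamini-Hochberg over all 14717 tested genes, called under 0.05). Each SE is the log2 fold change over the square root of F. The steps were tested on simulated counts. The labels give no batch. Exon lengths, UTRs and neighbours came from GENCODE M21, and per-length levels use the union of exons. Ratios used 0.5 added counts. Named genes are the 8 members, Gata5, Zfpm2, Lyl1, Ldb1, Tcf3, Klf1, up to 4 tested genes of each of 13 lists with the smallest p, Gata1 neighbours, and the 2 most similar genes. Ptprc, Tyrobp, Emcn, Pecam1, Vwf, Cdh5, Cbfa2t3, Xist and the Y-linked gene were named outside it. A result for 1 gene that this rule names is not reported here. Alternatives were other scalings, filters and tests, GC trends removed (splines with 4 df on genes of at least 5 CPM), the replicate block, other exon lengths and each library left out. Same-numbered lines deviated together with correlations of 0.0885, -0.0198 and 0.11, so the numbers were not taken as pairs. The 5 to 10 Mb X region, the GC-matched genes, the core-letter search and the whole-transcript search were chosen after seeing the data. Shallow libraries limit Tal1 and Lmo2 most, and intervals cover the spread between lines.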

Additional observations from a re-analysis of the deposited data

How the results depend on the processing

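Gata1, Gata4, Gata6, Zfpm1 and Lmo2 were called higher under all 16 alternatives, and all kept their direction. With library GC trends removed, 1 member was called lower, Gata2, at -0.26, and at -0.24 with the replicate block as well. With the replicate block alone, Gata2 was at -0.09, 5 members were higher and 0 lower, and the block changed no call of a member. When each library was left out in turn, 5 members stayed higher and 0 lower. The log2 fold change then ranged from 1.31 to 1.66 for Gata1, -0.17 to -0.07 for Gata2, 0.01 to 0.32 for Gata3, 1.70 to 1.81 for Gata4, 0.98 to 1.28 for Gata6, 0.91 to 0.99 for Zfpm1, 1.36 to 1.82 for Lmo2 and -0.66 to 0.43 for Tal1. Tal1 turned to 0.43 without wild-type replicate 1, which holds 42 of its 57 wild-type counts. Over all genes, 3096 to 4146 were higher and 2844 to 3956 lower. The Ldb1 log2 fold change, near 0, turned to 0.0014 with limma voom, 0.0042 with the replicate block, and 0.0136, 0.0003 and 0.0443 without knockout replicate 2, knockout replicate 3 and wild-type replicate 3, ranged from -0.044 to 0.0443 with a library left out, and was called lower, at -0.15, with GC trends removed. With GC trends removed 5 genes of the GATA1 complex were called lower, against 2. With the longest transcript as length, Gata2 made up 37.8% of the GATA sum in knockout and 57.5% in wild-type lines. Without wild-type replicate 1 Slc4a1 was no longer called (0.62, edgeR adjusted p = 0.074). The causes were not tested.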
